A study of Mus musculus with 6 samples.

Results

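The mevalonate arm of cholesterol synthesis is the series of enzymes that carries acetyl-CoA to squalene epoxide. It was followed here through 9 genes, *Acat2*, *Hmgcs1*, *Mvk*, *Pmvk*, *Mvd*, *Idi1*, *Fdps*, *Fdft1* and *Sqle*, chosen by symbol from the 59485 genes of the table, and all 9 were found. RNA was sequenced from whole sciatic nerves taken at postnatal day 4 (P4) from 3 control and 3 mutant mice, 1 library per animal. Mutants were *HtPA-Cre; Adar1 fl/fl; R26R*. In them, Cre under the human tissue plasminogen promoter deletes the floxed *Adar1* alleles in neural crest (NC) cells and their progeny, Schwann cells (SCs) included, and *R26R* is a YFP tracer switched on by Cre. Controls were labelled wild-type. In the study's crosses that term covers animals without Cre that carry *R26R* and 1 or 2 floxed *Adar1* alleles, so floxed alleles and the tracer locus were shared by both groups while Cre was present in the mutants. Cells of the nerve outside the NC lineage keep *Adar1*.

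Acetyl-CoA is condensed and reduced to mevalonate, mevalonate is phosphorylated and decarboxylated to isopentenyl diphosphate, and these isoprene units are joined into farnesyl diphosphate and then squalene. Squalene epoxide is next closed into the sterol ring by the post-squalene enzymes, whereas farnesyl diphosphate also feeds protein prenylation, dolichol and ubiquinone. Most enzymes of the arm are transcribed under SREBP2, which is released from the endoplasmic reticulum when sterols are scarce and acts together with NF-Y and SP1. SCs make most of the cholesterol of their own myelin, and the early postnatal nerve is a site of intense sterol synthesis.

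The promoters of 4 members are printed because the arm is known for this shared control, and because these members hold between them the sterol element found and most of the CCAAT boxes, the motif bound by NF-Y. Each runs 5′ to 3′ on the gene's strand from 250 bases before to 50 bases after the start given by RefSeq on GRCm38.p6, the assembly of mm10: *Hmgcs1* at chr13:119690101-119690400 (plus strand), *Mvk* at chr5:114444019-114444318 (plus), *Mvd* at chr8:122443373-122443672 (minus) and *Idi1* at chr13:8885356-8885655 (plus). Capitals mark the sterol regulatory element TCACNCCAC and CCAAT, read on both strands, so ATTGG is a CCAAT box on the other strand.
Hmgcs1: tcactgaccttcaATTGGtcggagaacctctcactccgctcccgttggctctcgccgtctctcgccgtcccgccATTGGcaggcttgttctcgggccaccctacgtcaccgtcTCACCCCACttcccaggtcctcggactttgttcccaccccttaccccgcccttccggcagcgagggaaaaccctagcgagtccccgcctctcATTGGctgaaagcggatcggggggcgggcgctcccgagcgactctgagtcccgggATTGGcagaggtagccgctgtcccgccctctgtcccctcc
Mvk: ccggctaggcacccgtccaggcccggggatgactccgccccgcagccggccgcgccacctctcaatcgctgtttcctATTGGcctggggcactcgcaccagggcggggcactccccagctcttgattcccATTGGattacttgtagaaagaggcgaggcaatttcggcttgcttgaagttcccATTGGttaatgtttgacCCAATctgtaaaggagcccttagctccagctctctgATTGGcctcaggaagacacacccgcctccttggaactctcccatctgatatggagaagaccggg
Mvd: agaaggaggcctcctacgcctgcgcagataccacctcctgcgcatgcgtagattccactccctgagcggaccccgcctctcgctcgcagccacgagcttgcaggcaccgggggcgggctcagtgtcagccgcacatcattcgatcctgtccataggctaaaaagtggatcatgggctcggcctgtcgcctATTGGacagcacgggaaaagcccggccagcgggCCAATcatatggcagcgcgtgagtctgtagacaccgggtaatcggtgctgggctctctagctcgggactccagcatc
Idi1: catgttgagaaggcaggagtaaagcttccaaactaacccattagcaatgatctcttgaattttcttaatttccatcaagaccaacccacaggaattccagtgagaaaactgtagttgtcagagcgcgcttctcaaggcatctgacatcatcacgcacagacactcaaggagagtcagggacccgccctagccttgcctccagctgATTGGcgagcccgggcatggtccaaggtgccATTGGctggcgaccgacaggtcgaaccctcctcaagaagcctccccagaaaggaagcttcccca

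RefSeq promoters were matched for 6 of the 9 members, *Acat2*, *Hmgcs1*, *Mvk*, *Pmvk*, *Mvd* and *Idi1*. TCACNCCAC was found in 1 of the 6, *Hmgcs1*, at position -137 from the start, against 1.24% of the 32851 promoters in the table. CCAAT was found in 5 of 6, against 37.4% of all promoters, and in 2 or more copies in 4 of 6, against 11.7%. *Mvk* held 5 copies, *Hmgcs1* 4, *Mvd* and *Idi1* 2 each, *Pmvk* 1 and *Acat2* 0. The SP1 motif GGGCGG, which does not overlap CCAAT, was found in 5 of 6 members and in 35.7% of all promoters. These are matches of letters in a fixed window, and no site was measured.

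Between 50938349 and 78250094 reads fell on genes in a library, and 139650 to 158438 of them in controls and 19843 to 35446 in mutants fell on the 9 members. No member had fewer than 576 reads in any library. The values are reads on the constitutive regions of a gene divided by a DESeq2 size factor per library, so they are levels that compare libraries and not genes. *Adar*, the targeted gene, had values of 1602, 2066 and 1133 in controls and 11768, 9311 and 9773 in mutants (log2 fold change 2.72, standard error 0.20, limma adjusted p = 4.1e-05). This goes against the deletion in the label, and 1 value per gene cannot show the deleted segment, so libraries are named by their labels below (control-labelled, mutant-labelled) and each direction rests on those labels. Log2 values correlated across genes at 0.941 to 0.951 within genotypes and 0.855 to 0.884 between them. In the RNA of a whole nerve, fewer cells of a type and less RNA per cell cannot be told apart. By electron microscopy of P4 nerves, the paper reports similar numbers of SCs in mutants and controls.

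All 9 members were lower in the mutant-labelled libraries, by 3.43-fold (*Pmvk*) to 10.6-fold (*Hmgcs1*) between the group means. Each of the 9 passed the threshold, which asks for at least a 2-fold change with an unadjusted limma p of 0.05 or less, whereas 10.4% of the 25802 genes tested were past it and lower. In each of the 9, the 3 mutant-labelled values lay below the 3 control-labelled ones, which held for 23.3% of genes tested. The median log2 fold change was -2.85 over the members and 0.03 over all genes tested. Adjusted p-values from limma, over all tested genes, lay between 2.4e-06 and 3.34e-05. In the order of all log2 fold changes from the lowest up, the members stood between the 1.16th percentile, *Hmgcs1*, and the 6.58th, *Pmvk*.

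**Figure D1:**
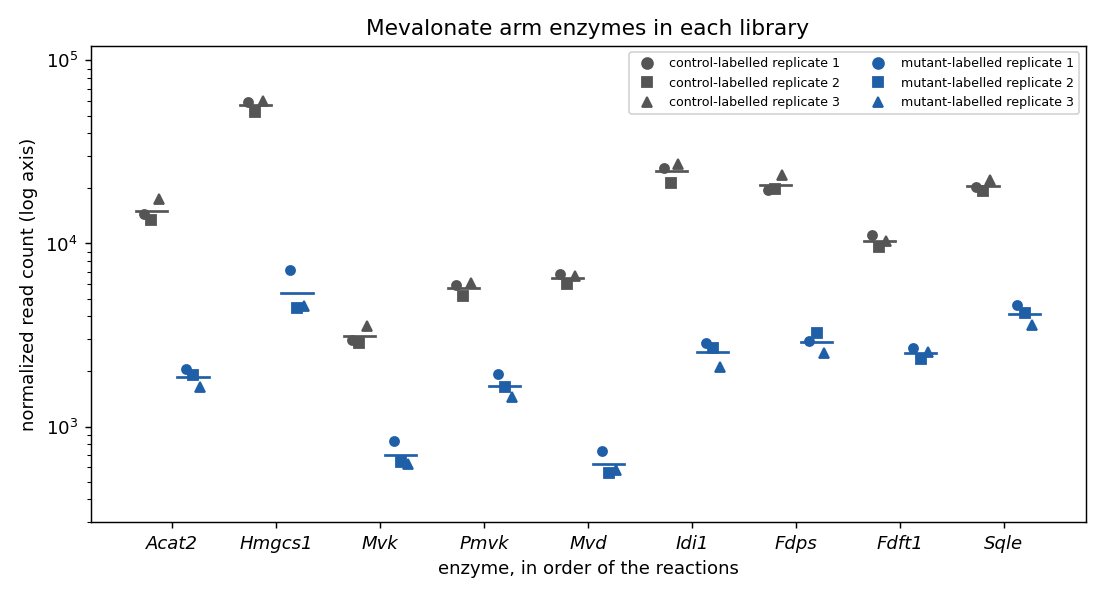
Value of each member (y axis, log scale, reads per size factor) in each of the 6 libraries, in the order of the pathway; points are single libraries and horizontal bars are the means of the 3 libraries of a genotype. In every gene the mutant-labelled points sit below the control-labelled ones, closest in *Pmvk* (5190 against 1931 between the nearest libraries).

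The entry into the pathway held 2 members. *Acat2* (GSMG0017124, chr17:12942890-12960736, minus strand) encodes the cytosolic thiolase that joins 2 acetyl-CoA into acetoacetyl-CoA. Its values were 14402, 13518 and 17471 in control-labelled and 2064, 1912 and 1643 in mutant-labelled libraries. *Acat2* thus fell to 12.4% of the control mean (log2 fold change -3.01, standard error 0.13, adjusted p = 3.34e-06). The groups did not overlap, and the lowest control was above the highest mutant several times over. *Hmgcs1* (GSMG0043189, chr13:119690351-119708260, plus strand) encodes the cytosolic HMG-CoA synthase, the next step. It was at 59449, 52140 and 59890 in control-labelled and at 7139, 4424 and 4548 in mutant-labelled libraries. *Hmgcs1* fell to 9.39% of the control mean (log2 -3.45, standard error 0.18, adjusted p = 7.45e-06), the lowest share among the members, and mutant replicate 1 stood above the other two.

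The next 3 enzymes turn mevalonate into isopentenyl diphosphate. *Mvk* (GSMG0029656, chr5:114444269-114460588, plus strand), mevalonate kinase, had values of 2984, 2856 and 3553 in control-labelled and 832, 644 and 621 in mutant-labelled libraries. That is a fall to 22.3% of the control mean (log2 -2.17, standard error 0.15, adjusted p = 2.72e-05). *Pmvk* (GSMG0024550, chr3:89454541-89469008, plus strand), phosphomevalonate kinase, had 5910, 5190 and 6098 against 1931, 1644 and 1445. It kept the largest share of the control mean in the arm, 29.2% (log2 -1.78, standard error 0.13, adjusted p = 3.34e-05). *Mvd* (GSMG0039016, chr8:122433596-122443423, minus strand), the decarboxylase that makes isopentenyl diphosphate, had 6820, 6014 and 6663 against 737, 556 and 576. At 9.58% of the control mean (log2 -3.39, standard error 0.13, adjusted p = 2.4e-06), it stood next to *Hmgcs1*. Of these 3 consecutive steps, then, the decarboxylase kept a smaller share of its level than either kinase.

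Isopentenyl diphosphate is isomerized and polymerized by 2 members. *Idi1* (GSMG0009411, chr13:8885606-8892451, plus strand), isopentenyl diphosphate isomerase, was at 25867, 21324 and 27107 in control-labelled and at 2851, 2683 and 2104 in mutant-labelled libraries. It fell to 10.3% of the control mean (log2 -3.29, standard error 0.14, adjusted p = 3.34e-06). *Fdps* (GSMG0025643, chr3:89093588-89101967, minus strand) makes farnesyl diphosphate, where the sterol and non-sterol branches part. Its values of 19533, 19847 and 23568 compare with 2947, 3243 and 2534, a fall to 13.9% (log2 -2.85, standard error 0.12, adjusted p = 3.14e-06). *Fdps* was the only member in which mutant replicate 2 was the highest of its group.

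Squalene is made and oxidized by the last 2 members. *Fdft1* (GSMG0012518, chr14:63145153-63179579, minus strand), squalene synthase, had values of 11162, 9574 and 10302 in control-labelled and 2694, 2350 and 2559 in mutant-labelled libraries. It fell to 24.5% of the control mean (log2 -2.03, standard error 0.10, adjusted p = 5.5e-06) with the lowest coefficient of variation among mutants of any member, 6.82%. *Sqle* (GSMG0013218, chr15:59315075-59331193, plus strand), squalene epoxidase, had 20274, 19244 and 22314 against 4588, 4179 and 3597 (log2 -2.33, standard error 0.11). Its groups did not overlap either, and its mutant-labelled libraries stood in the order of those of *Acat2*, *Mvk*, *Pmvk* and *Idi1*, replicate 1 highest and replicate 3 lowest.

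**Figure D2:**
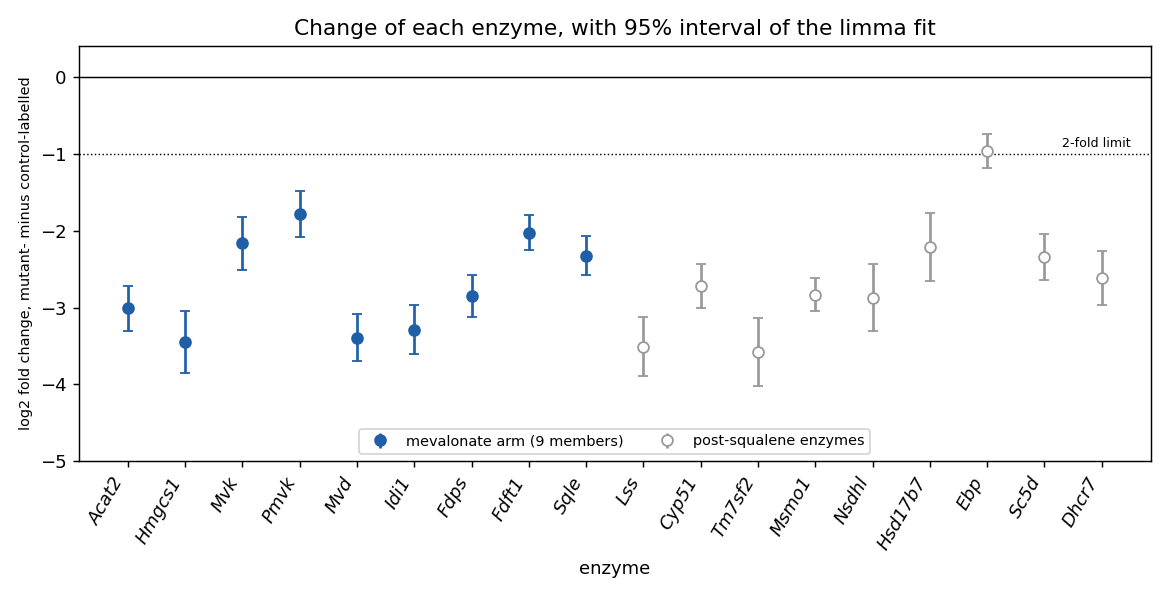
Log2 fold change (y axis, mutant- minus control-labelled) of each enzyme in pathway order, members filled and 9 post-squalene enzymes open; bars are the 95% intervals of the limma fit on 3 against 3 libraries, and the dotted line marks a 2-fold change. Members run from -3.45 (*Hmgcs1*) to -1.78 (*Pmvk*), and *Ebp*, at -0.97, is the one enzyme drawn whose estimate lies above the dotted line.

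**Figure D3:**
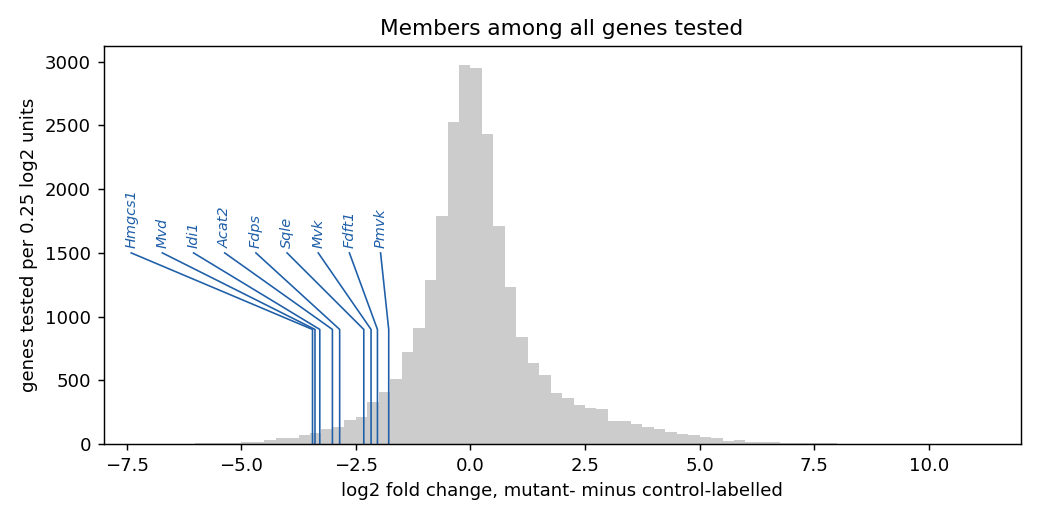
Number of genes tested (y axis) per bin of 0.25 in log2 fold change (x axis, mutant- minus control-labelled) for 25802 genes, with the 9 members drawn as lines. The members stand between -3.45 and -1.78 in the lower tail, while the median gene is at 0.03.

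The estimated size of the fall differed from step to step. To compare steps free of library scaling, the mean log2 value of the 9 members was subtracted within each library. On this relative log2 scale *Hmgcs1* was lower by 0.75, *Mvd* by 0.69, *Idi1* by 0.59 and *Acat2* by 0.31 in mutant-labelled libraries. By contrast *Pmvk* was higher by 0.92, *Fdft1* by 0.67, *Mvk* by 0.53 and *Sqle* by 0.37. *Fdps*, at -0.15 (standard error 0.12), overlapped between the groups (exact two-sided permutation p = 0.2, n = 3 and 3). The other 8 did not overlap, with an exact p of 0.1 each, the smallest that 3 against 3 allows. Measured in the same way, 88.3% of all genes tested did not overlap, because the members' mean itself differed between genotypes, so 8 of 9 is near this background and is no result about the members.

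Ratios between steps show the size of the unevenness in single libraries. *Hmgcs1* over *Pmvk* was 10.1, 10.05 and 9.82 in control-labelled and 3.70, 2.69 and 3.15 in mutant-labelled libraries, a log2 difference of -1.66 (standard error 0.13). *Idi1* over *Fdft1* went from 2.32, 2.23 and 2.63 to 1.06, 1.14 and 0.822. *Fdps* over *Fdft1*, the 2 enzymes on either side of farnesyl diphosphate, went from 1.75, 2.07 and 2.29 to 1.09, 1.38 and 0.990. Groups did not overlap in any of these 3 ratios (exact permutation p = 0.1 each). The pairs were named with the values known, each setting a larger fall over a smaller one, so this separation is no test. How often ratios of other gene pairs separate was not measured. Members were also ordered by change, which by itself sets members with like changes side by side. Overlap between such neighbours was favoured by the ordering and is no result about the steps. In 6 of the 8 neighbouring pairs the ratio overlapped between groups, and the 2 that did not were *Idi1* over *Acat2* (log2 -0.28, standard error 0.08) and *Fdps* over *Sqle* (log2 -0.53, standard error 0.09). Over the 8 pairs, the adjusted exact permutation p of both was 0.32.

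Levels of different genes can be set side by side per length only. Per kilobase of exon (GENCODE M21, all exons of a gene merged, since the lengths of the constitutive regions are not given in the sources used here), *Hmgcs1* was the highest member in control-labelled libraries, at 15669 ± 1193 (SD, n = 3). It was followed by *Fdps* (11808 ± 1263), *Idi1* (8017 ± 986), *Sqle* (7473 ± 567) and *Acat2* (6072 ± 833). *Mvd* (3701 ± 243), *Pmvk* (3347 ± 280), *Fdft1* (2798 ± 215) and *Mvk* (1569 ± 185.9) were lower. *Idi1* and *Sqle*, and *Mvd* and *Pmvk*, lay within their spreads of each other. In mutant-labelled libraries the highest 3 per kilobase were *Fdps* (1637 ± 200), *Sqle* (1494 ± 181) and *Hmgcs1* (1472 ± 420), which did not differ beyond their spread. *Pmvk* (977 ± 143), *Idi1* (824 ± 127), *Acat2* (752 ± 86) and *Fdft1* (685 ± 47) followed. *Mvd* (355 ± 57) and *Mvk* (350.2 ± 58) were lowest. By these means *Mvd* stood 6th per length in control-labelled and 8th in mutant-labelled libraries, and *Pmvk* stood 7th and 4th. The exact ranks are not resolved. In mutant-labelled libraries the spreads of *Mvd* and *Mvk* overlapped, as did those of *Pmvk* and *Idi1*.

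The order of the libraries within a genotype was alike in many members, though not in all. Control replicate 2 was the lowest control in 8 of 9 members and control replicate 3 the highest in 7, which held for 28.9% and 33.0% of all genes tested. Mutant replicate 1 was the highest mutant in 8 of 9, against 34.4% of genes tested, mutant replicate 3 the lowest in 6 and mutant replicate 2 the lowest in 3. The summed value of the 9 members was 166401, 149708 and 176966 in control-labelled and 25783, 21635 and 19626 in mutant-labelled libraries.

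Myelin genes, whose sheath the sterol goes into, fell in the same libraries but less evenly. The list had 5 of 5 genes past the threshold and lower, and their coefficient of variation (CV, SD over mean) among mutant-labelled libraries was 68.2 to 100.5%, against 6.82 to 28.5% for the members. Among control-labelled libraries these CVs were 4.81 to 14.7% and 6.57 to 13.7%. *Mbp*, a structural protein of compact myelin, stood at 8.94, 0.859 and 2.80% of its control mean in mutant replicates 1, 2 and 3. *Hmgcs1* stood at 12.5, 7.74 and 7.96% and *Fdft1* at 26.0, 22.7 and 24.7% in the same libraries. Mutant replicate 2 was lowest for 5 of 5 myelin genes and for 3 of 9 members. The difference in spread was not tested.

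**Figure D4:**
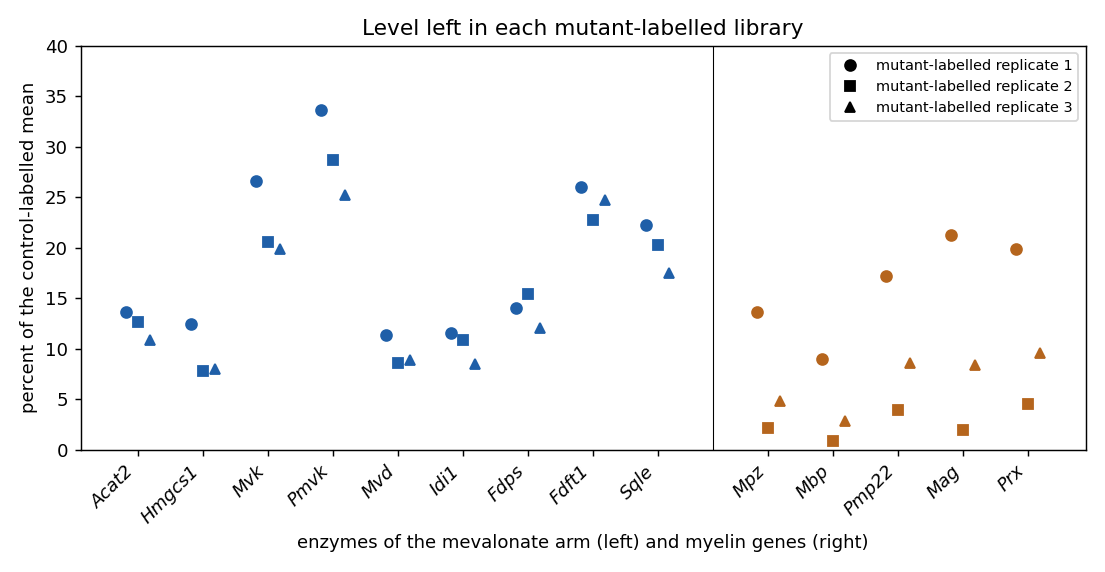
Percent of the control-labelled mean (y axis, linear scale from 0) left in mutant replicates 1, 2 and 3 for each member and for 5 myelin genes; each point is 1 library. In each myelin gene replicate 1 is highest and replicate 2 lowest, at 8.94 and 0.859% for *Mbp*, while the points of *Fdft1* run from 22.7 to 26.0%.

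Markers of the nerve's cell types were read beside these values. *Sox10*, *S100b*, *Erbb3*, *Egr2* and *Foxd3* were present in every library. *Sox10*, the SC lineage transcription factor, had 12618, 11719 and 10920 in control-labelled and 9171, 5838 and 6828 in mutant-labelled libraries (log2 -0.71, not past the threshold). Of the 7 SC lineage markers, 3 fell, *S100b* (log2 -3.07) and *Erbb3* (-1.55) among them. *Gfap* rose from 1.11 to 15.1 in control-labelled to 40.6 to 81.0 in mutant-labelled libraries, and the other 3 did not pass. Divided by the *Sox10* value of the same library, the members' log2 fold changes lay between -2.73 (*Hmgcs1*) and -1.07 (*Pmvk*), with a median of -2.14, and all 9 passed. On that scale the median of all genes tested moved to 0.77.

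Erythroid markers were also lower in the mutant-labelled libraries, with 4 of 5 past the threshold. Their summed value was 44144 to 62503 in control-labelled and 4108 to 12706 in mutant-labelled libraries. Among the latter it was highest in mutant replicate 3, where the members' sum was lowest. Skeletal muscle markers moved the other way, with 4 of 5 higher and summed values of 5187 to 28319 and 34500 to 267697, highest in mutant replicate 3. Of the 5 fibroblast markers *Col1a1* and *Col3a1* were past the threshold and lower, of the 5 perineurial ones *Itgb4*, and of the 5 macrophage ones *Csf1r*, while *Aif1* was higher. No endothelial or adipocyte marker passed (0 of 5 each), though the adipocyte sum reached 23328 in mutant replicate 2 against 3187 and 4331 in the other mutants. Lymphocyte markers were 3 of 5 higher, *Cd4*, *Cd8a* and *Cd2*, with no value above 276 in any library. The part of these cell types in the members' change was not tested. Without mutant replicate 3, which had the most muscle signal, the members' median was -2.76, and without mutant replicate 2 it was -2.93.

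Downstream of the arm, the post-squalene enzymes shared the pattern, with 9 of 10 past the threshold and lower and a median log2 fold change of -2.78. Lanosterol synthase, *Lss*, which closes the ring of squalene epoxide, had 7045, 5719 and 6323 against 705, 459 and 533 (log2 -3.51). *Tm7sf2*, a sterol reductase acting on the ring, changed by -3.58. The exception was the isomerase *Ebp*, at -0.97.

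Upstream, the genes of acetyl-CoA supply went in both directions, with 3 of 5 lower and 1 of 5 higher, where 13.9% of genes tested were past the threshold and higher. *Acss2*, which makes acetyl-CoA from acetate, fell by 3.57 on the log2 scale (3190, 2729 and 3614 against 281, 235 and 279). *Slc25a1*, the mitochondrial citrate carrier, fell by 1.93 and *Acly*, ATP citrate lyase, by 1.56. Malic enzyme, *Me1*, which yields NADPH, rose by 1.45 (1022, 1350 and 1581 against 4876, 3368 and 2712). *Pdha1*, of mitochondrial pyruvate dehydrogenase, was at -0.17 and did not pass.

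Of 11 genes of SREBP regulation and sterol uptake, 6 were past the threshold and lower and 0 higher, with a median of -1.27. *Insig1*, a sterol-sensing retention factor and itself an SREBP target, fell by 3.12 on the log2 scale. *Srebf2*, the gene of SREBP2 (log2 -1.29), and the sterol carrier *Stard4* (-1.27) fell too. *Srebf2* stood at 4794, 5205 and 5269 in control-labelled and 2415, 1874 and 1994 in mutant-labelled libraries. *Srebf1* (0.09), *Scap* (-0.53), *Insig2* (0.50) and the proteases *Mbtps1* (-0.72) and *Mbtps2* (0.47) did not pass. Divided by *Sox10*, the changes of *Srebf2* (-0.57), *Stard4* (-0.56) and *Acly* (-0.84) were under 2-fold, and *Insig2* (1.22) and *Mbtps2* (1.18) passed as higher.

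Among 16 genes of the non-sterol isoprenoid branches, most of which start from farnesyl diphosphate, 2 were lower, 2 were higher and 12 did not pass, with a median log2 fold change of 0.26. Both counts are near the background over all genes tested, given above for each direction. They depend on the scaling, with 1 lower and 4 higher at equal library totals, 2 and 1 at an equal 75th percentile, and 1 and 8 after division by *Sox10*. *Fnta*, the subunit common to farnesyl transferase and geranylgeranyl transferase I, had 12357, 13271 and 13649 against 2994, 2213 and 2241 (log2 -2.41, standard error 0.13, adjusted p = 8.78e-06). *Fntb*, the farnesyl transferase partner of *Fnta*, fell by 1.09, whereas *Pggt1b*, the partner in geranylgeranyl transferase I, was at 0.996 and just short of the limit. *Pdss1*, which makes the ubiquinone tail, rose by 1.28 and *Trit1*, a tRNA isopentenyl transferase that draws on the pathway before *Fdps*, by 1.05. *Ggps1*, the geranylgeranyl diphosphate synthase that uses the product of *Fdps*, was at 0.67 and did not pass. With library totals made equal, *Fntb* was at -0.92, and at the same 75th percentile *Trit1* was at 0.99, each then short of the threshold. *Trit1* was also short of it without control replicate 2 (0.92) or mutant replicate 1 (0.90), and *Pggt1b* reached 1.13 without control replicate 1 and 1.22 without mutant replicate 2. Over all alternative fits *Pggt1b* passed in 7, edgeR and DESeq2 (1.02 each) included, and stayed short in 12.

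None of 5 genes linked to the degradation of sterol pathway enzymes passed (median 0.07), though *Rnf139* reached 1.16 and passed after division by *Sox10*. Genes that lie next to members or share a promoter region with them were also read. *Mmab*, of cobalamin metabolism, starts 242 bases from *Mvk* on the other strand and had 487, 473 and 566 in control-labelled and 299, 233 and 190 in mutant-labelled libraries (log2 -1.10). It thus kept 47.2% of its control mean where *Mvk* kept 22.3%, and was at -0.94 and short of the threshold without mutant replicate 3, and at -0.39 after division by *Sox10*. *Tcp1* (0.02), which overlaps the *Acat2* paralog *Acat3* rather than *Acat2* itself, and *Ctsb* (0.19), which overlaps the end of *Fdft1* on the other strand, did not pass, nor did *Tonsl* (-0.51), listed with them without adjoining a member.

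Some reads of members could belong to other genes. *Acat2* overlaps 3 unnamed genes on its own strand, with means under 1 in both groups. *Fdps* lies within the extent given for *Il6ra* on its strand, and *Il6ra* had means of 154 and 214 in the 2 groups, far under those of *Fdps*. *Acat3*, a close paralog of *Acat2*, fell as well (276, 259.8 and 286 against 34.9, 47.3 and 57.4) and at far lower levels, and reads could be split between them. *Acat2*, *Hmgcs1*, *Pmvk*, *Fdps*, *Fdft1* and *Sqle* overlap genes on the other strand, and whether strand was used in counting is not given in the sources used here. Without strand, reads of the overlapped bases cannot be told apart. Over 769 bases, *Fdft1* (means 10346 and 2534) overlaps *Ctsb*, which had means of 48199 and 54930 in control- and mutant-labelled libraries. *Sqle* (means 20611 and 4121) overlaps *E430025E21Rik*, with means of 3712 and 3545, over 618 bases. The other genes on the opposite strand had means of at most 380.1, and the part of such reads in the members' values was not tested. *Mvk*, *Mvd* and *Idi1* overlap no other gene of the table.

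Outside the members, the 5 genes with a symbol whose log2 values ran most like the members' mean across the 6 libraries were *Mblac2*, *Mthfd2l*, *Scd2*, *Slc9a3r1* and *Cyp51*, with Pearson r from 0.9989 to 0.9994. *Cyp51*, lanosterol demethylase, is the next enzyme but one after *Sqle*, and *Scd2* is a fatty acid desaturase. These r describe 6 libraries that fall into the 2 genotypes, and 1414 of the 13033 genes compared (10.8%) had an r of at least 0.95.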

How the data were processed

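Sciatic nerves of 3 control and 3 mutant animals at P4 gave 6 poly-A libraries of oriented cDNA. The authors mapped reads with STAR 2.4.0 to mm10, counted those on constitutive regions of FAST DB genes, and deposited a signal per gene, reads divided by a DESeq2 size factor. Dividing by the smallest step of each library gave whole reads for 100% of values (tolerance 0.01). The members and gene lists were chosen with earlier results of these data known, and every gene of a list could be named.

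log2(value + 1) was fitted with limma 3.58.1 (lmFit, eBayes with trend) in R 4.3.3 for 25802 of 59485 genes, those with a mean of at least 10 in at least 1 genotype, and p-values were adjusted by the Benjamini-Hochberg method over all of them. The threshold was a 2-fold change with an unadjusted p of 0.05 or less. The pseudocount of 1 understates changes of genes with few reads. Alternatives covered 13 settings, among them edgeR 4.0.16 (2423 genes lower, 3382 higher) and DESeq2 1.42.0 (2523 and 3503) on the recovered reads, and each of 6 libraries left out. The code was tested on simulated data. Depth was 50938349 to 78250094 reads on genes. The paper's filter against intergenic regions was not applied, 35979 genes carry no symbol, and a few genes of the lists are left unnamed, their values not given here. Promoters came from RefSeq (GRCm38.p6) and exon lengths from GENCODE M21.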

Additional observations from a re-analysis of the deposited data

How the results depend on the processing

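All 9 members were past the threshold and lower under each of 13 other settings and in each fit that omitted 1 of the 6 libraries. With 1 library left out, the members' median log2 fold change lay between -2.93 and -2.76, the count of genes past the threshold and lower between 2391 and 2743, the count of other pathway genes past it between 28 and 31, and the count of members separated on the relative scale between 8 and 9. Division by *Sox10* moved the median of the members to -2.14 and the count of genes lower to 1081, since that gene was itself lower in the mutant-labelled libraries. The split of lower against higher genes was 2671 and 3580 as deposited, 2155 and 4259 at the same total (median of all genes 0.20), 2932 and 3336 at the same 75th percentile, and 1081 and 8339 after division by *Sox10*. With the replicate block 2589 genes and all 9 members were lower. The labels do not pair the animals, and same-numbered libraries did not deviate together (correlations of -0.06, -0.06 and 0.01). *Ebp* reached -1.04 at the same 75th percentile and -1.02 without control replicate 2, *Mmab* was at -0.94 at the same total, and *Rabggtb* and *Pggt1b* reached 1.07 and 1.16 there. With 3 animals per genotype, an exact permutation p cannot go below 0.1.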

Other observations

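Ketone bodies share their first reactions with the mevalonate arm, and 4 of the 7 tested paralogs and ketone body genes were past the threshold and lower, with 0 higher and a median log2 fold change of -1.41. *Bdh1*, the mitochondrial dehydrogenase that interconverts the ketone bodies, had 1898, 1832 and 1991 in control-labelled and 182.6, 113 and 137 in mutant-labelled libraries (log2 -3.74, standard error 0.19, limma adjusted p = 7.78e-06), a larger estimate than for any of the 9 members. *Oxct1*, which activates acetoacetate for use as fuel, changed by -1.41, while mitochondrial *Acat1* (-0.60) did not pass. Divided by *Sox10*, *Oxct1* was at -0.69. *Idi2*, the paralog of *Idi1*, had 0 reads in each library, which allows up to 3 reads per library, counting error only.

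Among 4 oxysterol enzymes, *Ch25h*, which makes 25-hydroxycholesterol, rose from 26.7, 20.8 and 2.53 to 266, 276 and 185.9 (log2 4.22, standard error 0.74, limma adjusted p = 0.00301), with few reads behind the control values. The estimate was 3.37 with a pseudocount of 10, 3.29 without control replicate 3 and 4.90 after division by *Sox10*, and it passed the threshold each time. *Cyp46a1* fell by 1.25 on the log2 scale, and was at -0.98 and short of the threshold without mutant replicate 3, and at -0.53 after division by *Sox10*. *Cyp7b1* (-0.66) and *Cyp27a1* (-0.60) did not pass.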
